A study of Homo sapiens with 6 samples.

Results

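Interleukin receptors are built from a small number of transmembrane chains, and the level of each chain sets which interleukins a blood cell can respond to. Described here are 10 such genes, IL1RAP, IL18R1, IL2RG, IL4R, IL6R, IL6ST, IL5RA, IL10RA, IL10RB and IL17RA, of 43424 gene symbols listed. They were matched by symbol, and all 10 were found. The genes were chosen from the measured counts of these libraries, with the difference between the labels already in view, so their values are given as a description, with no p-value. How many passed the threshold is counted once, beside the share over all genes. The study cultured HL-60, a human acute myeloid leukaemia cell line labelled WT, for 6 months with CIP, named for the plant Corydalis incisa (Thunb.) Pers. and raised slowly over that time between 2 and 20 µg/ml, or with DMSO, a common solvent. The first group is described by the submitters as resistant to CIP, and the stated purpose was to find genes of CIP-induced differentiation. There were 3 libraries per label, which the labels do not describe as separate cultures. The p-values therefore reflect only how far these libraries vary, and that variation may be technical.

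Many interleukin receptors pair a chain that gives specificity with a chain that several receptors share. Class I chains (IL2RG, IL4R, IL5RA, IL6R, IL6ST) and class II chains (IL10RA, IL10RB) have no kinase of their own. Their receptors signal through bound JAK kinases, which switch on STAT transcription factors. IL6R binds IL-6 and relies on IL6ST for the signal. The IL-1 family chains (IL1RAP, IL18R1) recruit MYD88 and IRAK kinases, and IL17RA recruits the adaptor TRAF3IP2. In myeloid cells these receptors take part in inflammation, in survival and, for IL5RA, in the eosinophil lineage.

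Total counts were 8143657 to 10868396 per library, and 15609 to 17524 symbols had at least 1 count. A library's 3 counts, the limit that a count of 0 allows, came to 0.288 to 0.347 CPM (counts scaled to a library's TMM-adjusted total). Myeloperoxidase (MPO), a granule enzyme for which HL-60 is known, had 77887, 82824 and 84917 counts with the CIP label and 15, 9 and 9 counts with the DMSO label. MYC, amplified in HL-60, stood at 280.1 ± 52.3 with CIP against 41.8 ± 3.91 CPM with DMSO, and CTSG, a granule protease, at 95.4 ± 4.78 with CIP against 655 ± 28.1 CPM with DMSO. All 7 HL-60 markers had counts, summed at 9674 to 10234 CPM with the CIP label and 1644 to 1765 CPM with the DMSO label. MPO alone, at 8684 ± 282 CPM with CIP, made up most of the CIP sum, so the sum mostly follows MPO. Of the 7, 4 rose (MPO, MYC, PRTN3 and CD33) and 3 fell (CTSG, ELANE and AZU1). For MPO and MYC, the DMSO-labelled libraries thus go against the background given for the line, and with no other control samples the effect of the label and a difference of cell identity cannot be told apart. Of 12844 genes tested with edgeR, 9394 (73.1%) passed an adjusted p of 0.05, 34.9% higher and 38.2% lower with the CIP label. By library totals alone, without TMM scaling, 63.2% of the genes that passed were lower in place of 52.3%, and the median log2 fold change of all genes moved to -0.26 from -0.03. In bulk RNA, fewer cells of a type and less RNA per cell cannot be told apart.

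Between the labels, IL18R1, IL4R and IL10RA had the widest differences among the chains and were lower with the CIP label, while IL2RG and IL6R were lower by less. IL1RAP, IL6ST and IL17RA overlapped between the labels, and IL5RA and IL10RB were close to the limit of counting. Of the 10 chains, 8 passed the filter on low counts. Among those 8, 5 were past the threshold, all lower, which is 62.5%, beside 73.1% of all tested genes in either direction and 38.2% lower. The same 5 had libraries that did not overlap between the labels, a separation found for 75.5% of all tested genes. These shares come from the values the chains were chosen on and carry no further reading. A 3' method reads each transcript near its end whatever its length, so levels are set side by side without a length correction. By mean CPM the order with the CIP label was IL2RG, IL17RA, IL6R, IL1RAP, IL6ST, IL4R, IL10RA, IL5RA, IL18R1 and IL10RB. There IL6ST and IL4R overlapped, as did the last 4 with their neighbours. With the DMSO label it was IL2RG, IL6R, IL17RA, IL4R, IL1RAP, IL18R1, IL10RA, IL6ST, IL10RB and IL5RA. There IL18R1 overlapped with both IL1RAP and IL10RA, and IL10RB with IL5RA.

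**Figure D1:**
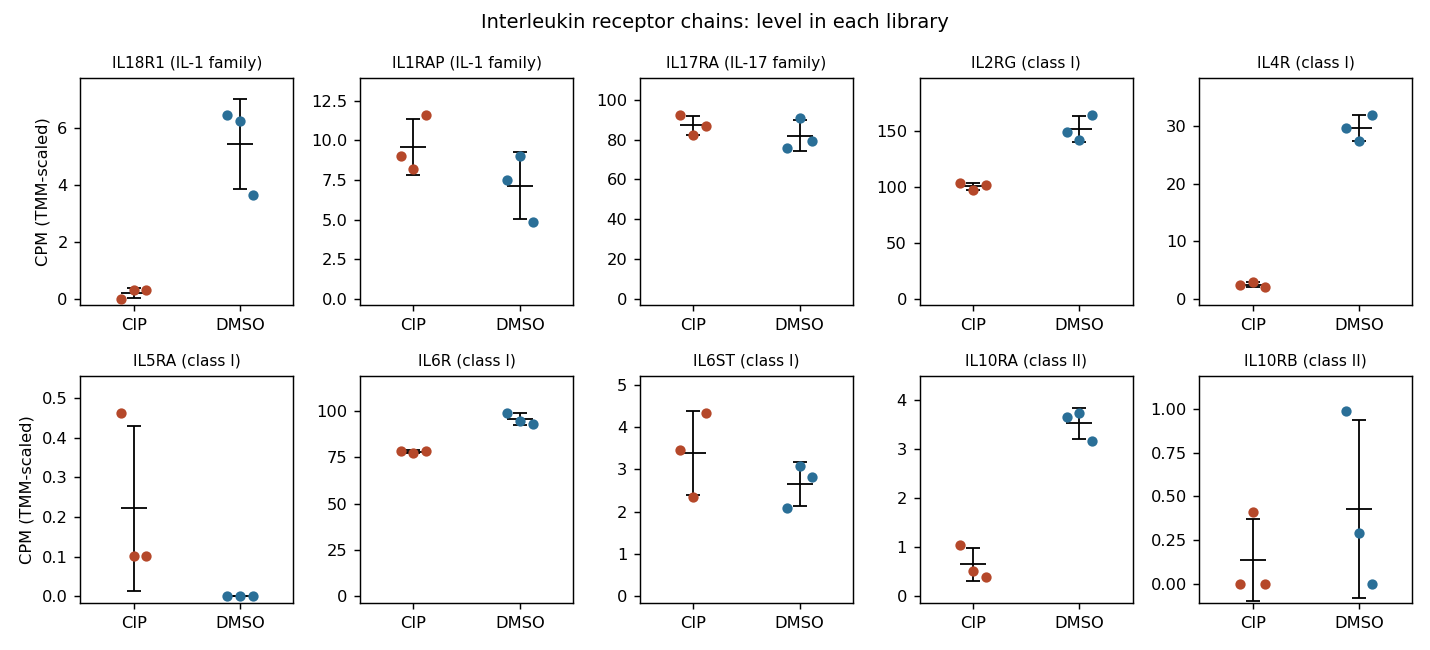
Level of each of the 10 interleukin receptor chains in CPM (TMM-scaled, linear axis), CIP-labelled libraries on the left and DMSO-labelled on the right of each panel. Points are libraries and bars are mean and SD (n = 3 each). IL4R stood at 2.02 to 2.87 CPM with the CIP label and at 27.3 to 31.9 CPM with the DMSO label, while IL17RA and IL6ST overlapped.

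The promoters of the 3 chains with the widest differences are shown because these genes were lower together. They are RefSeq sequences (GRCh38.p14) from 250 bases before to 50 after the start, given 5′ to 3′ on the strand of the gene, here the plus strand for each. The start used lies inside the annotated span of IL4R and of IL10RA. For IL10RA, the whole sequence lies past the annotated start (117986394). For IL4R, it begins before the annotated start (27313756). The promoters lie at chr16:27313724-27314023 (IL4R), chr11:117989695-117989994 (IL10RA) and chr2:102355546-102355845 (IL18R1). Capitals mark matches to the motifs named after the sequences.
IL4R: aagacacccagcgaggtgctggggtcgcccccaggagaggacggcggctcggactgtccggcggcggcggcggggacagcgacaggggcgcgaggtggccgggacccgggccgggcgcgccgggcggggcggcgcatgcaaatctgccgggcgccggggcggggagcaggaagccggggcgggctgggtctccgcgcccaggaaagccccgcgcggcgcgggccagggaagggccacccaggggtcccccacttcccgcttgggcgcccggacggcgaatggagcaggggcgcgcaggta
IL10RA: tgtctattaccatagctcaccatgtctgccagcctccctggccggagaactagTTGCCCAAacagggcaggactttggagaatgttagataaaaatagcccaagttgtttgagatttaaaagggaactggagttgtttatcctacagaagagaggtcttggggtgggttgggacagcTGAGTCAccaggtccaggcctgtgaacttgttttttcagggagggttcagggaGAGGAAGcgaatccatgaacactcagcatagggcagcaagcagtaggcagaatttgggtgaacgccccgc
IL18R1: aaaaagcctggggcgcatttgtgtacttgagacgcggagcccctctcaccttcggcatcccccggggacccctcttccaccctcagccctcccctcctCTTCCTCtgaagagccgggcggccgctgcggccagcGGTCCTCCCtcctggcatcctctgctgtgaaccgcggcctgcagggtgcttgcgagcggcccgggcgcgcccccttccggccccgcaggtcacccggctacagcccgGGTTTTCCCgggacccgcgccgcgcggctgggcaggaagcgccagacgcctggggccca

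The motifs were searched on both strands of 9 of the 10 chains' promoters, and IL17RA had no entry in the table. They were the STAT dimer site TTCNNNGAA, the PU.1 type site GAGGAAG, the AP-1 site TGANTCA, the C/EBP site TTGCNNAA and the NF-kB type site GGGANNNCC. The IL10RA promoter held a C/EBP match at -197, an AP-1 match at -73 and a PU.1 type match at -20, counted from the start. The IL18R1 promoter held a PU.1 type match at -152 and NF-kB type matches at -116 and -9, each on the minus strand. The IL4R promoter held none of the 5 motifs. No matches overlapped within these 3 promoters. Matches were not particular to them. Among the other promoters searched, IL6R held PU.1 type, AP-1 and NF-kB type matches and IL6ST an NF-kB type match. IL10RB held PU.1 type matches and the only STAT match, and IL1RAP, IL2RG and IL5RA held none. Among 35116 promoters of 300 bases, 13.6% held the PU.1 type motif, 7.71% the AP-1, 10.5% the C/EBP, 22.9% the NF-kB type and 7.66% the STAT motif. Base composition also differed among IL4R, IL18R1 and IL10RA. IL4R was 79.3% G or C with 42 CpG, IL18R1 72.3% with 29 and IL10RA 50.3% with 4. The median over all promoters was 58.7% and 14. The IL10RA composition and match positions belong to a start inside the annotated gene. A match is a run of letters and shows no binding.

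The common gamma chain, IL2RG (chromosome X, 71107404 to 71111577, GRCh38), is shared by the receptors of IL-2, IL-4, IL-7, IL-9, IL-15 and IL-21. It had the highest level of the 10 chains under both labels. IL2RG stood at 103, 96.6 and 101.4 CPM with the CIP label and at 149, 141 and 164 CPM with the DMSO label. All CIP-labelled libraries lay below all DMSO-labelled ones, and the log2 fold change was -0.59 ± 0.07 (SE, n = 3 each). With library totals alone it was -0.82. Of 6 partner chains of IL2RG described next, 4 passed the low-count filter, each through the label where it was high, so a wide difference was built into their selection. IL2RB, which binds IL-2 and IL-15, had 0 counts with the CIP label and 43 counts with the DMSO label (edgeR adjusted p = 1.3e-05). That is at least 10.8-fold lower (lower end of the exact 95% interval). IL15RA, the specific chain for IL-15, fell to 0.150 ± 0.178 CPM with CIP against 5.22 ± 0.792 CPM with the DMSO label (adjusted p = 6.0e-09). IL21R had 1 count with the CIP label and 62 with the DMSO label, 59.8 times lower (exact 95% interval 10.3 to 2400, adjusted p = 1.9e-06). IL9R, the specific chain for IL-9, rose, with a count that is uncertain.

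IL9R had 110, 96 and 163 counts with the CIP label and 1, 0 and 0 with the DMSO label, a ratio of 383 (exact 95% interval 68.2 to 15149, adjusted p = 4.8e-15). The uncertainty is that IL9R has near-identical pseudogene copies and lies in a pseudoautosomal region. IL7R, at 16 with CIP against 25 counts with DMSO, and IL2RA, with 1 count under each label, were too low to test. JAK3, the kinase that binds the IL2RG tail, had 0, 2 and 5 counts with the CIP label and 210, 188 and 153 with the DMSO label. Its log2 fold change was -6.17 ± 0.38 (adjusted p = 3.1e-16). JAK3 passed the low-count filter through the DMSO label alone, so a difference was built into its selection. In those CIP-labelled libraries, where JAK3 had at most 5 counts, IL2RG stood at 96.6 to 103 CPM. The ligands IL2, IL7, IL15 and IL21 had 0 counts in all libraries. The annotation places an unnamed protein-coding gene over IL2RG on the same strand, and reads of the pair cannot be told apart.

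**Figure D2:**
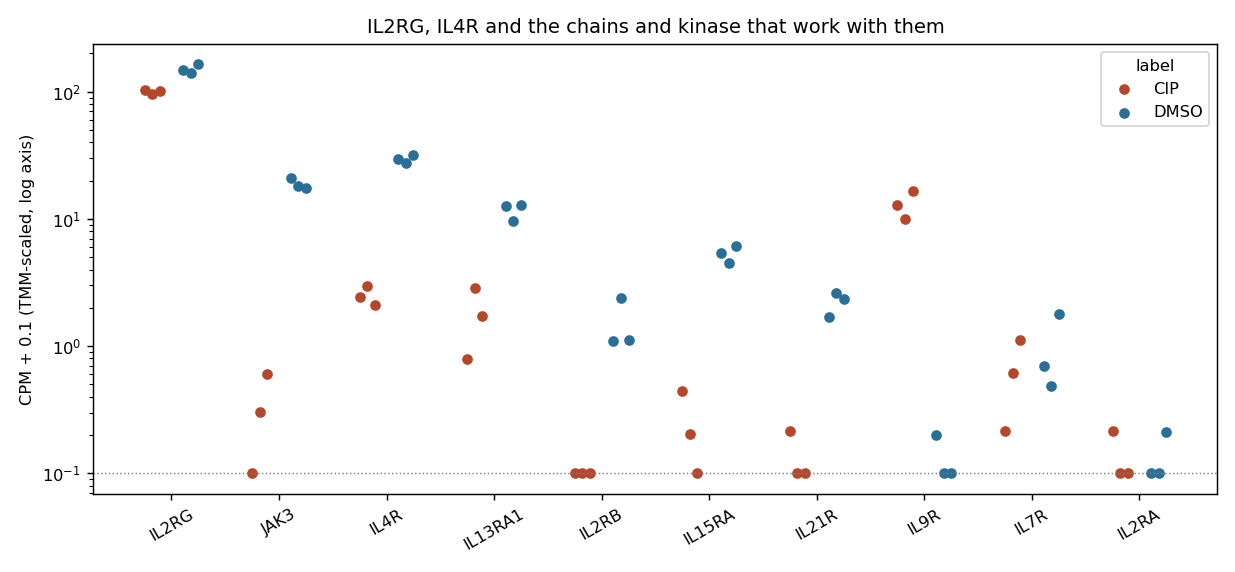
Level of IL2RG, IL4R and the chains and kinase that act with them in each library (CPM + 0.1, TMM-scaled, log axis; CIP-labelled points left, DMSO-labelled right; dotted line, 0 counts). IL2RG differed by 0.59 on the log2 scale, JAK3 had 7 counts with the CIP label against 551 with the DMSO label, and IL9R had 369 with CIP against 1 with DMSO.

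IL4R (chromosome 16, 27313756 to 27364778) binds IL-4 and, with IL13RA1, IL-13, and it signals mainly through STAT6. It stood at 2.31, 2.87 and 2.02 CPM with the CIP label and at 29.6, 27.3 and 31.9 CPM with the DMSO label. The labels did not overlap, and the log2 fold change was -3.62 ± 0.21 (SE), or 12.3-fold lower with the CIP label. IL13RA1, its partner in the IL-13 receptor, fell as well, to 1.69 ± 1.04 CPM with the CIP label, against 11.6 ± 1.79 CPM with the DMSO label (log2 fold change -2.75 ± 0.32, adjusted p = 3.2e-09). IL13RA2, a decoy chain, had 1 with CIP against 2 counts with DMSO, and the ligands IL4 and IL13 had 0 counts in all libraries. FCER2, the low-affinity IgE receptor that IL-4 is known to induce, had 0 counts with the CIP label and 270 with the DMSO label (adjusted p = 2.6e-13). That is at least 70.1-fold lower (lower end of the exact 95% interval). FCER2 passed the low-count filter through the DMSO label alone, so a difference was built into its selection. Of other genes listed as induced through STAT3, STAT5 or STAT6, ALOX15, CCL17 and CCL22 had 0 counts in all libraries. MRC1 had 4 counts with CIP against 1 with DMSO, TGM2 10 against 7 and IL4I1 0 against 45, and these were not tested. STAT6 went the other way from IL4R, at 44.7 CPM with the CIP label and 27.3 CPM with the DMSO label (log2 fold change 0.71 ± 0.12, adjusted p = 1.4e-06). STAT6 was picked out after its values were seen.

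IL4R and FCER2 are also abundant in B cells. The 7 B cell markers given here are a partial list, so their sum is no measure of such cells. Of the 7, 4 had any count, with a summed level of 0.403 to 1.54 CPM with the CIP label and 1.58 to 3.84 CPM with the DMSO label. CD22 stood at 0.0385 ± 0.0668 with CIP against 1.55 ± 0.857 CPM with DMSO and was not tested, and CD79A, at 0.567 ± 0.360 with CIP against 1.25 ± 0.213 CPM with DMSO, did not pass (adjusted p = 0.096). MS4A1, CR2 and FCRLA were at 0 in all libraries. Of 11 T cell markers, 6 had any count, with summed levels of 1.5 to 2.02 CPM with CIP against 2.94 to 3.26 CPM with DMSO. TRAC stood at 0.918 ± 0.0949 with CIP against 2.67 ± 0.238 CPM with DMSO and CD247 at 0.564 ± 0.352 with CIP against 0.161 ± 0.199 CPM with DMSO, while CD5, CD6, CD28, LCK and TRAT1 were at 0 throughout. The part of these cell types in the receptor values was not tested.

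IL6R (chromosome 1, 154405343 to 154469450) binds IL-6, and IL6ST (chromosome 5, 55935095 to 55994963), also called gp130, is the signalling chain that IL-6, IL-11, LIF and oncostatin M share. IL6R stood at 78.2, 77.4 and 78.7 CPM with the CIP label and at 99.04, 94.8 and 92.96 CPM with the DMSO label. The labels did not overlap, but the difference was small, with a log2 fold change of -0.29 ± 0.08 (SE), which was -0.52 with library totals alone. The antisense gene IL6R-AS1 overlaps IL6R and had 0 with CIP against 12 counts with DMSO, and with the strand setting unknown here their reads cannot be separated. IL6ST stood at 3.47, 2.36 and 4.34 CPM with the CIP label and at 2.08, 3.07 and 2.83 CPM with the DMSO label. These overlapped, with a log2 fold change of 0.35 ± 0.39.

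Chains that pair with IL6ST fell where they could be tested. IL11RA, which binds IL-11, stood at 2.14 ± 0.581 CPM with the CIP label, against 13.6 ± 3.32 CPM with the DMSO label (log2 fold change -2.67 ± 0.28, adjusted p = 3.0e-10). IL27RA, the IL-27 chain, stood at 17.7 ± 1.78 with CIP against 34.2 ± 0.578 CPM with DMSO (log2 fold change -0.95 ± 0.13, adjusted p = 1.2e-07). LIFR had 0 counts in all libraries, and OSMR, at 12 with CIP against 21 counts with DMSO, and CNTFR, at 1 with CIP against 0 with DMSO, were too low to test. Of the ligands, oncostatin M (OSM) had 33 counts with the CIP label and 0 with the DMSO label. OSM was not tested because of the filter and was at least 8.77-fold higher (lower end of the exact 95% interval). CTF1 had 10 with CIP against 17 counts with DMSO. IL6 (1.74 ± 0.941 with CIP against 2.84 ± 1.1 CPM with DMSO, adjusted p = 0.17), LIF (1.51 ± 0.903 with CIP against 2.5 ± 0.338 CPM with DMSO, adjusted p = 0.17) and IL11 (1.04 ± 1.25 with CIP against 1.81 ± 0.845 CPM with DMSO, adjusted p = 0.35) did not pass. Without CIP replicate 3, IL6 and IL11 passed, at log2 fold changes of -1.23 and -2.38.

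IL1RAP (chromosome 3, 190514085 to 190659750) is the accessory chain of the IL-1, IL-33 and IL-36 receptors and is known as a surface antigen of leukaemic stem cells. It stood at 9.02, 8.19 and 11.6 CPM with the CIP label and at 7.53, 9.01 and 4.86 CPM with the DMSO label. The libraries overlapped, with a log2 fold change of 0.42 ± 0.25 (SE). The ligand-binding chains that need IL1RAP were near the limit of counting. IL1R1 had 8 with CIP against 17 counts with DMSO, IL1RL1 (the IL-33 chain) 11 with CIP against 0 with DMSO, and IL1RL2 (the IL-36 chain) 1 count under each label, and the decoy IL1R2 had 0 with CIP against 1 with DMSO. SIGIRR, an inhibitory chain of the family, rose to 24.7 ± 2.71 CPM with the CIP label, against 18.6 ± 1.66 CPM with the DMSO label (log2 fold change 0.41 ± 0.15, adjusted p = 0.013). It did not pass with library totals alone (0.18) or without CIP replicate 3 (0.34) or DMSO replicate 2 (0.33), all as log2 fold changes.

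IL1B and IL1RN moved in opposite directions. IL1B, the secreted inflammatory ligand, rose to 14.9, 14.1 and 16.6 CPM with the CIP label, against 1.88, 2.4 and 1.7 CPM with the DMSO label (log2 fold change 2.92 ± 0.26, adjusted p = 4.4e-12). IL1RN, the receptor antagonist, fell to 1.27 ± 0.143 CPM with CIP against 3.87 ± 0.993 CPM with the DMSO label (log2 fold change -1.59 ± 0.43, adjusted p = 0.0013). IL1A, at 2 with CIP against 3 counts with DMSO, and IL33, at 9 with CIP against 28 with DMSO, were too low to test.

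IL18R1 (chromosome 2, 102355796 to 102398776), the IL-18 binding chain, had 0, 3 and 3 counts with the CIP label and 65, 65 and 32 with the DMSO label. No library overlapped between the labels, and the log2 fold change, -4.61 ± 0.58 (SE), was the widest among the 8 chains. From the summed counts, 6 with CIP against 162 with DMSO, IL18R1 was 26.0 times lower with the CIP label (exact 95% interval 11.7 to 72.02, counting error only). IL1RL1 overlaps IL18R1 on the same strand in GENCODE v29, where it had 11 counts with CIP against 0 with DMSO. The signalling partner IL18RAP had 2 with CIP against 14 counts with DMSO and was not tested. IL18, the ligand, stood at 8.58 ± 1.2 with CIP against 6.34 ± 1.49 CPM with DMSO (log2 fold change 0.44 ± 0.25, adjusted p = 0.11), and IL18BP, its soluble inhibitor, at 3.78 ± 1.66 with CIP against 2.8 ± 0.477 CPM with DMSO (adjusted p = 0.33).

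IL5RA (chromosome 3, 3066324 to 3110374) binds IL-5 and marks eosinophils and basophils. It had 4, 1 and 1 counts with the CIP label and 0 in each DMSO library, at least 2.07-fold higher against 3 counts over the group, and did not pass the filter. Its shared signalling chain CSF2RB, which IL-3 and GM-CSF also use, rose to 11.6, 13.2 and 9.18 CPM with the CIP label, against 2.08, 3.16 and 0.565 CPM with the DMSO label (log2 fold change 2.51 ± 0.34, adjusted p = 1.2e-07). CSF2RA, the GM-CSF binding chain, fell to 3.44 ± 0.466 CPM with CIP against 9.32 ± 1.56 CPM with DMSO (log2 fold change -1.43 ± 0.27, adjusted p = 1.8e-05), and IL3RA had 26 with CIP against 29 counts with DMSO. Both lie in a pseudoautosomal region, where reads can match a pair of copies. IL5 had 5 counts with the CIP label and 0 with the DMSO label. All 10 eosinophil markers had counts, with a summed level of 6256 to 6588 CPM with the CIP label and 736 to 749 CPM with the DMSO label. Of the 6 tested, 3 rose, 2 fell and 1 did not pass (83.3% called beside 73.1% of all tested genes), and EPX and CLC were at 0 with the DMSO label. PRG2, an eosinophil granule protein, was at 6248 ± 192 with CIP against 1.41 ± 0.998 CPM with DMSO, and made up most of the sum with CIP. The 2 that fell, RNASE2 and RNASE3, made up most of the sum with DMSO. RNASE2, an eosinophil ribonuclease, stood at 90.4 ± 5.01 with CIP against 395 ± 4.78 CPM with DMSO. RNASE3 stood at 13.6 ± 0.483 with CIP against 343 ± 4.61 CPM with DMSO. All 9 mast cell and basophil markers had counts, and of the 5 tested 2 rose, 2 fell and 1 did not pass (80% called, near the 73.1% of all tested genes). The 2 that rose, named after their values were seen, were KIT, a growth factor receptor of mast cells, at 42.3 ± 0.912 with CIP against 0.468 ± 0.368 CPM with DMSO, and the transcription factor GATA2, at 88.9 ± 3.02 with CIP against 2.05 ± 0.834 CPM with DMSO. The markers summed to 226 to 236 with CIP against 194 to 209 CPM with DMSO. TPSAB1 had 0 with CIP against 108.1 ± 6.48 CPM with DMSO and MS4A3 stood at 96.9 ± 8.23 with CIP against 85.9 ± 3.41 CPM with DMSO. Reads of TPSAB1 can be shared with its near-identical paralog. The part of these markers in the IL5RA counts was not tested.

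IL10RA (chromosome 11, 117986394 to 118003037) is the specific chain of the IL-10 receptor, and IL10RB (chromosome 21, 33266367 to 33310182) is the chain it shares with IL-22, IL-26 and interferon lambda. IL10RA had 9, 5 and 4 counts with the CIP label and 37, 39 and 28 with the DMSO label. The labels did not overlap, and the log2 fold change was -2.44 ± 0.49 (SE), which was -2.90 without CIP replicate 1. IL10RB was near the limit of counting, with 0, 4 and 0 counts with the CIP label and 10, 3 and 0 with the DMSO label, and the readthrough gene IFNAR2-IL10RB had 0. The ratio of the summed counts of IL10RB was 0.319 (exact 95% interval 0.0758 to 1.03). The annotation also places an unnamed protein-coding gene over IL10RB on the same strand, and its effect on these counts was not tested. Among the chains that use IL10RB, IL22RA1 and IFNLR1 had 0 counts in all libraries and IL20RA had 0 with CIP against 5 with DMSO, while of the ligands IL10 had 1 with CIP against 0 counts with DMSO and IL22 and IL26 had none. IL10RA is also abundant in monocytes and macrophages. Of 11 such markers, 9 had counts, summed at 6.24 to 7.16 CPM with the CIP label and 46.5 to 53.9 CPM with the DMSO label. Of the 6 tested, 5 fell, 0 rose and 1 did not pass (83.3% called beside 73.1% of all tested genes). CD68 stood at 0.691 ± 0.301 with CIP against 17.0 ± 1.75 CPM with DMSO and MS4A7 at 0.454 ± 0.0932 with CIP against 17.0 ± 3.49 CPM with DMSO. FCGR1A did not pass (log2 fold change 0.11 ± 0.41, adjusted p = 0.82). CD14 had 2 with CIP against 0 counts with DMSO and CSF1R 18 with CIP against 25 with DMSO, with CD163 and C1QB at 0 throughout. The part of such cells in the IL10RA value was not tested.

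IL17RA (chromosome 22, 17085000 to 17115693) is the chain that receptors of the IL-17 family share. It stood at 92.3, 82.3 and 86.6 CPM with the CIP label and at 75.96, 90.6 and 79.5 CPM with the DMSO label. The labels overlapped, with a log2 fold change of 0.08 ± 0.09 (SE), and the sign turned with library totals alone (-0.14). No partner chain of IL17RA was above 1 count with the CIP label. IL17RE, which binds IL-17C, had 1 count with the CIP label and 101 with the DMSO label, 97.4 times lower (exact 95% interval 17.1 to 3886, adjusted p = 4.9e-08). It passed the low-count filter through the DMSO label alone, so a difference was built into its selection. IL17RC had 0 with CIP against 14 counts with DMSO and IL17RD 0 with CIP against 28 with DMSO, both below the filter, and IL17RB had 0 throughout. The ligands IL17A, IL17F and IL25 had 0 counts in all libraries.

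**Figure D3:**
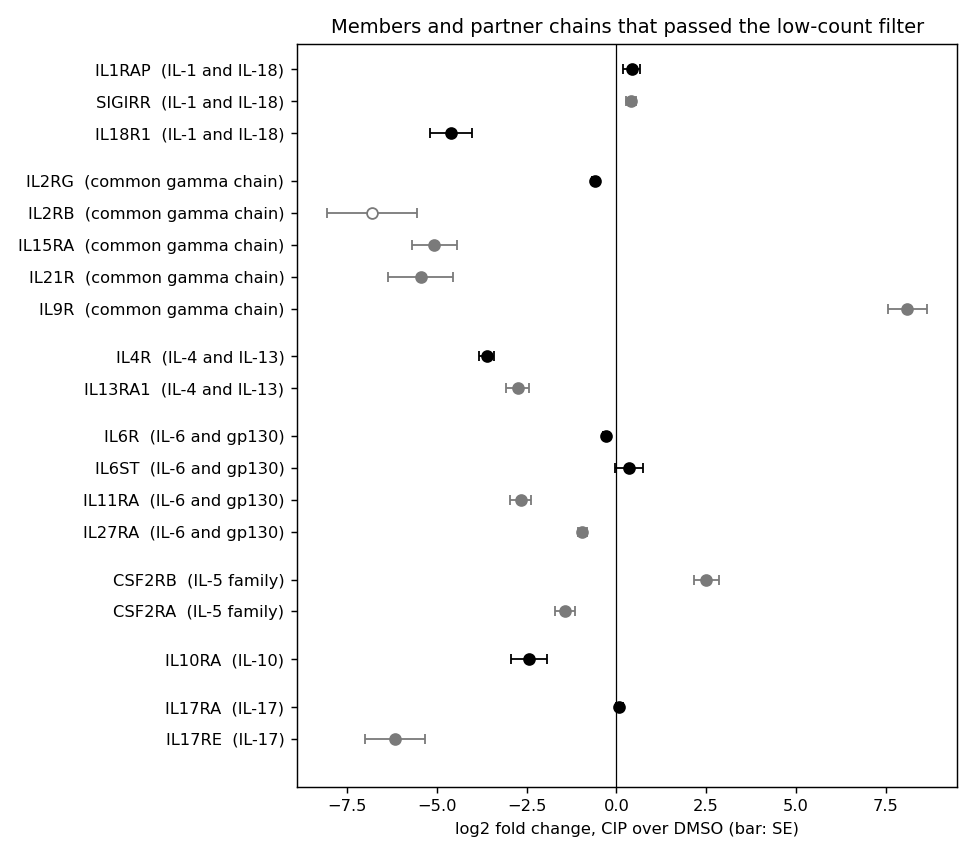
Log2 fold change (CIP over DMSO, bars SE, from 3 libraries each) of the 8 interleukin receptor chains that passed the low-count filter (black) and of their tested partner chains (grey), grouped by receptor. The open point, IL2RB, had 0 counts with the CIP label, so its fitted value is no bound. IL9R and CSF2RB lie right of 0, and IL18R1, IL4R and IL10RA lie left of it.

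Over the 33 other interleukin receptor chains listed, 12 passed the low-count filter, of which 3 rose, 8 fell and 1 did not pass. That is 91.7% called, beside 73.1% of all genes, with a median log2 fold change of -2.71 beside -0.03. Several of the 12 passed the filter through 1 label alone, so a difference was built into their selection. The 3 that rose were IL9R, SIGIRR and IL23R. IL23R, a chain of the IL-23 receptor, was named here after its values were seen. It had 23, 31 and 15 counts with the CIP label and 0 in each DMSO library (adjusted p = 2.9e-07). IL23R was at least 18.9-fold higher (lower end of the exact 95% interval).

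Receptors built from the class I and class II chains signal through JAK kinases and STAT factors. Of 10 tested JAK and STAT genes, 7 fell, 2 rose and 1 did not pass (90.0% called, median log2 fold change -0.40). Over all tested genes 73.1% were called, 34.9% higher and 38.2% lower, with a median of -0.03, and no difference between this list or those that follow and all genes was tested. STAT5A, which IL-2, IL-3 and IL-5 activate, fell to 3.1 ± 1.44 CPM with the CIP label, against 34.5 ± 2.49 CPM with the DMSO label (adjusted p = 1.4e-16). TYK2, a kinase bound to IL10RB, stood at 41.0 ± 1.87 with CIP against 79.2 ± 1.19 CPM with DMSO (adjusted p = 3.2e-11), and STAT3, which IL6ST and IL10RA activate, at 19.9 ± 1.24 with CIP against 38.3 ± 1.05 CPM with DMSO (adjusted p = 3.7e-08). The 2 that rose, JAK2 and STAT6, were picked out after their values were seen. JAK2 had a log2 fold change of 0.68 ± 0.23 (adjusted p = 0.01). With library totals alone, 1 of the 10 rose.

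Of 19 tested inhibitors of JAK-STAT signalling, 9 rose, 7 fell and 3 did not pass (84.2% called beside 73.1% of all genes, median log2 fold change 0.18). PIAS2, an inhibitor of STAT factors, rose (log2 fold change 1.53 ± 0.12, adjusted p = 3.2e-13), while PIAS3, known as an inhibitor of STAT3, fell (-2.11 ± 0.20, adjusted p = 1.3e-11). PTPRC (CD45), a phosphatase that acts on JAK kinases, fell to 54.7 ± 4.52 CPM with CIP against 185 ± 7.15 CPM with the DMSO label (adjusted p = 3.9e-20), and the phosphatase DUSP3 fell (-1.70 ± 0.13, adjusted p = 5.8e-14).

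Of 23 tested adaptors of IL1RAP, IL18R1 and IL17RA, 10 rose, 8 fell and 5 did not pass (78.3% called, near the 73.1% of all genes, median log2 fold change 0.35). MYD88, the adaptor next to the IL-1 and IL-18 receptors, fell to 2.31, 2.56 and 3.43 CPM with the CIP label, against 11.8, 12.3 and 12.1 CPM with the DMSO label (adjusted p = 9.4e-09). TRAF5 had 7 with CIP against 295 counts with DMSO (adjusted p = 6.0e-12), and the kinase IKBKB fell (log2 fold change -1.14 ± 0.13, adjusted p = 7.2e-10). PELI1, a ubiquitin ligase of IRAK kinases, had 258 counts with the CIP label and 2 with the DMSO label. That is 134 times higher (exact 95% interval 36.6 to 1110, adjusted p = 3.3e-13). TRAF5 passed the low-count filter through the DMSO label alone and PELI1 through the CIP label alone. A difference was thus built into their selection.

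Of 15 tested proteins that cut, move or degrade these receptors, 9 fell, 3 rose and 3 did not pass (80.0% called beside 73.1% of all genes, median log2 fold change -0.74). RHBDF2, which brings the IL-6 receptor sheddase ADAM17 to the surface, fell (log2 fold change -1.78 ± 0.25, adjusted p = 7.8e-08), as did the protease FURIN (-1.78 ± 0.11, adjusted p = 8.9e-16), the deubiquitinase USP8 (-1.38 ± 0.08, adjusted p = 1.2e-17) and the metalloproteinase inhibitor TIMP1 (-1.95 ± 0.30, adjusted p = 0.0036). With library totals alone, 1 rose in place of 3. Of 21 tested genes known to be induced through STAT3, STAT5 or STAT6, 12 fell, 7 rose and 2 did not pass (90.5% called beside 73.1% of all genes, median log2 fold change -0.92). PIM1, a kinase induced by STAT5, fell to 6.01 ± 1.64 CPM with CIP against 54.1 ± 7.96 CPM with the DMSO label (adjusted p = 1.9e-18), and LRG1, a STAT3-induced glycoprotein, to 4.13 ± 1.4 with CIP against 49.2 ± 1.47 CPM with DMSO (adjusted p = 4.1e-19). CEBPD, also induced by STAT3, had 1336 counts with the CIP label and 3 with the DMSO label (adjusted p = 9.7e-23). It passed the low-count filter through the CIP label alone, so a difference was built into its selection. TIMP1 is in both lists.

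**Figure D4:**
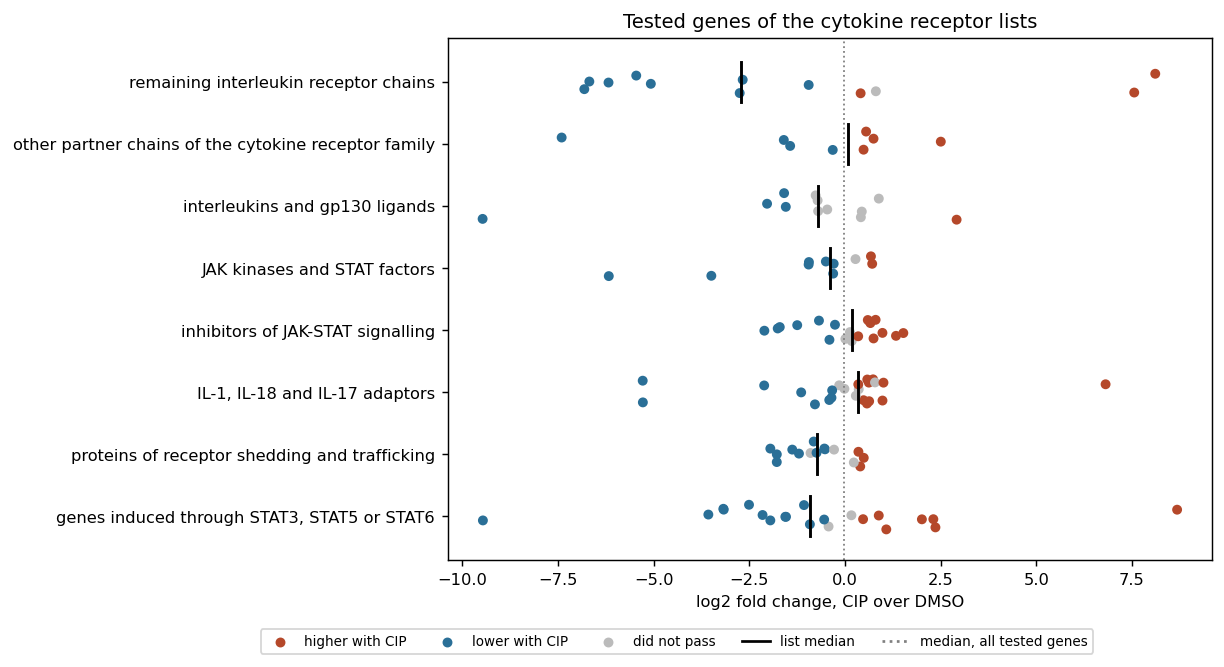
Log2 fold change (CIP over DMSO) of each tested gene in the lists of receptor chains, ligands and signalling genes. Each point is a gene, coloured by its call (edgeR adjusted p under 0.05), the black bar is the list's median and the dotted line the median of all 12844 tested genes (-0.03). Of the JAK and STAT genes, 2 rose and 7 fell, and of the IL-1, IL-18 and IL-17 adaptors 10 rose and 8 fell.

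Genes whose profile over the 6 libraries lay nearest to the 3 most abundant chains were found by distance on gene-centred log2 CPM. IL2RG was nearest to RXRB (distance 0.07), DUSP22 (0.08) and HNRNPL (0.09), with log2 fold changes of -0.57, -0.58 and -0.56. IL6R was nearest to ARPC5 (0.05), RAD51AP1 (0.08) and MDM4 (0.08). IL17RA was nearest to SEMA4D (0.06), SS18L2 (0.07) and PDSS2 (0.10). With 2 labels, likeness of this kind is mostly likeness of the fold change.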

How the data were processed

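The deposited files hold raw read counts per gene symbol for 6 libraries, with no normalization by the authors that the values show. The libraries were made from total RNA with a Lexogen QuantSeq kit, per the labels' protocols. Tools named in the submitters' processing notes are STAR, HTSeq, fastp and bcl2fastq 2.20.0.422, with build GRCh38. Annotation release and strand setting: not given in the sources used here. Counting intervals cover counting error only.

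Counts were filtered with filterByExpr, scaled by TMM and tested across all genes with edgeR 4.0.16 (R 4.3.3, quasi-likelihood, robust, group alone, 2-sided, Benjamini-Hochberg). Tested genes near 0 under 1 label passed the filter through the other label, so a difference was built into their selection. CPM are counts over TMM-scaled totals, given as mean ± SD (n = 3); SE is the log2 fold change over the square root of F. The steps were tested on simulated counts in which few genes changed. That is no test of the scaling where most genes differ, as here. An exact permutation test of 3 CIP libraries on 3 DMSO libraries cannot go below p = 0.10. Libraries of 1 label were not duplicates, with a chi-square of 3.82 to 7.66 per gene between them. Members and lists were chosen with earlier results of these data known. A further B cell marker is not reported here, for a reason other than its value, which leaves that list incomplete. Named genes are the members, their partner chains and ligands, up to 4 called genes per signalling list with the widest change at 5 CPM or more, up to 2 per marker list, and the 3 nearest profiles. Positions and promoters are from RefSeq GRCh38.p14, overlaps also from GENCODE v29. Alternatives were RLE scaling, library totals, other filters, no robust fitting, DESeq2 1.42.0, a replicate block and each library left out.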

Additional observations from a re-analysis of the deposited data

How the results depend on the processing

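Of 260 counts of calls recomputed (20 counts, 13 alternatives), 250 stayed within 1.5 times. Partner chains of the wider cytokine receptor family that rose, 4 of 8 tested, numbered 2 with library totals alone and 2 to 4 with a library left out (2 without CIP replicate 2, DMSO replicate 2 or DMSO replicate 3). Ligands that rose, 1 of 12 tested, numbered 2 without the low-count filter and 1 to 2 with a library left out (2 without CIP replicate 1, DMSO replicate 1 or DMSO replicate 3). With library totals alone, 1 JAK or STAT gene in place of 2 and 1 shedding or trafficking gene in place of 3 rose. Those totals shift all fold changes down together. Of 104 recomputed fold changes of the chains, 4 moved by more than the spread between libraries: IL2RG (-0.82), IL6R (-0.52) and IL17RA (-0.14) with library totals alone and IL10RA (-2.90) without CIP replicate 1, where the cause was not tested. IL4R ranged between -3.85 and -3.49 and IL18R1 between -4.96 and -4.09. Same-numbered libraries shared only a number (correlation of deviations -0.04 to -0.02), and with the replicate block 9061 genes were called in place of 9394. Low counts limit IL5RA and IL10RB, with at most 10 counts in a library.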

Other observations

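Among ligands outside the complexes described, chosen after their values were seen, IL32, a proinflammatory cytokine of lymphocytes and monocytes, had 3, 0 and 4 counts with the CIP label and 1818, 1880 and 1716 with the DMSO label (log2 fold change -9.47 ± 0.19, SE, edgeR adjusted p = 2.2e-30). IL32 passed the low-count filter through the DMSO label alone, so a difference was built into its selection. IL16, a T cell attractant, stood at 6.5 CPM with the CIP label against 26.7 CPM with the DMSO label (adjusted p = 8.8e-12). Of 12 ligands tested, 1 rose, 4 fell and 7 did not pass, which is 41.7% called beside 73.1% of all tested genes.

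Receptor chains beyond those above also differed. IL31RA, the IL-31 chain, had 1 count with the CIP label and 146 with the DMSO label (140.8 times lower, exact 95% interval 24.9 to 5600, adjusted p = 9.4e-10). CRLF2, the TSLP receptor chain, had 0 with CIP against 65 counts with DMSO (adjusted p = 7.3e-07), with the limit that it is pseudoautosomal. CRLF2 was at least 16.5-fold lower (lower end of the exact 95% interval). IL31RA and CRLF2 passed the low-count filter through the DMSO label alone, so a difference was built into their selection. Of the interferon receptor chains, IFNAR2 fell to 27.1 CPM with CIP against 81.9 CPM with DMSO (adjusted p = 6.2e-16), and IFNGR2 rose to 71.5 CPM with CIP against 51.0 CPM with DMSO (adjusted p = 6.9e-05). Of the 8 tested partner chains of the wider cytokine receptor family, 4 rose and 4 fell (100% called beside 73.1% of all tested genes). With library totals alone, 2 rose.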
